A study of Ovis aries with 32 samples.

Results

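Interferon-stimulated genes are switched on in a cell when interferon, a warning signal secreted during infection, reaches its receptors. The levels of 9 of them, MX1, MX2, ISG15, IFIT2, IFIT3, IFI44, IFIH1, RSAD2 and IRF7, were followed through 4 tissues of Tan sheep, a fat-tailed breed, under either of 2 diets. The members were the rows of the deposited table whose gene name equalled 1 of these symbols. Each symbol stood on 1 row, so they are 9 of 30722 rows, of which 17372 carry a name.

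Sheep of the SA group received a basal pellet to which succinic acid, a metabolite of the tricarboxylic acid cycle, had been added at 1% of dry matter, and sheep of the CON group received the basal pellet alone. All 24 sheep (12 per diet) were male and 3 months old, were adapted for 10 days and were then fed for 60 days. RNA of hypothalamus, pituitary, liver and tail fat from 4 sheep per diet gave 8 groups of 4 libraries, 32 in all. The libraries of a group are numbered 1 to 4, and the labels do not say whether a number marks the same sheep in every tissue.

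Values are transcript abundances scaled to a fixed total per library (TPM), which account for transcript length. Markers bore out the labels of liver and tail fat, with albumin (ALB) at means of 13260 TPM in liver SA and 58440 TPM in liver CON, and adiponectin (ADIPOQ) at 2898 TPM in tail fat SA and 3824 TPM in tail fat CON. In libraries labelled pituitary the hormone subunit gene CGA was listed at 0 throughout and prolactin (PRL) averaged 0.448 TPM in SA and 0.0675 TPM in CON. The markers FSHB, TSHB and GHRHR averaged at most 0.115 TPM there. POMC averaged 3.81 TPM in SA and 3.40 TPM in CON there, and 6.14 TPM in SA and 5.46 TPM in CON in tail fat. In libraries labelled hypothalamus the peptide gene AVP averaged 0.473 TPM in SA and 0.353 TPM in CON, and PMCH 0.14 TPM in SA and 0.113 TPM in CON. The other markers found, AGRP, POMC, HCRT and TRH, averaged from 1.40 TPM (TRH in CON) to 2.87 TPM (AGRP in SA). PPP1R1B, a marker of striatal neurons, averaged 1529 TPM in SA and 1496 TPM in CON. Libraries of both labels are therefore named here by their labels only. Mitochondrially encoded genes held 51.7% to 70.9% of TPM in liver SA libraries, against 20.2% to 27.8% in liver CON libraries, and the library SA 4 labelled pituitary held 67.5%, against 36.4% to 50.6% in the other SA libraries of that label.

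Type I interferons bind a receptor whose kinases JAK1 and TYK2 activate transcription factors that bind response elements in the promoters of these genes. The products act at several steps of a viral infection. Many nucleated cells make them, and in liver the hepatocytes and the resident macrophages both respond to interferon. The genes are described here by role. MX1 and MX2 encode dynamin-like GTPases that trap viral components, RSAD2 encodes viperin, an enzyme that makes a chain-terminating nucleotide, and IFIT2 and IFIT3 encode tetratricopeptide proteins of a complex that binds foreign RNA. ISG15 encodes a ubiquitin-like protein that is attached to other proteins. IFI44 is an interferon-induced gene whose product is less well understood. IFIH1 encodes MDA5, a cytoplasmic sensor of long double-stranded RNA, and IRF7 encodes a transcription factor that drives interferon genes.

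Under the control diet MX1, ISG15, IFI44 and IFIH1 were highest in liver with or without the liver library CON 3, which is described below. With all libraries, liver had the highest mean of the 4 tissues for MX1, MX2, ISG15, IFI44, IFIH1 and RSAD2, pituitary for IFIT2 and IFIT3, and tail fat for IRF7 on the log2(TPM + 1) scale used for all tests. Without liver CON 3, an alternative chosen after the values were seen, 4 of the 9 members in place of 6 were highest in liver, MX2 was highest in hypothalamus and RSAD2 in tail fat. Mitochondrially encoded genes held 46.0% to 55.3% of TPM in hypothalamus CON and 40.9% to 44.3% in pituitary CON. They held 20.2% to 27.8% in liver CON and 22.5% to 70.6% in tail fat CON. The order of the tissues was not taken after a rescaling. A limma F-test over the 16 CON libraries, two-sided and adjusted by Benjamini-Hochberg over all genes tested, called 8 of the 9 members different between tissues at an adjusted p under 0.05, where 87.3% of the 15929 genes tested were called. IRF7 was the exception (adjusted p = 0.0584), and MX2 passed narrowly (adjusted p = 0.0478) and did not pass without the libraries numbered 1 (adjusted p = 0.0577), 2 (0.0712) or 4 (0.179). Without those numbered 3 all 9 passed, IRF7 at an adjusted p = 0.0143 in limma, and all 9 passed too without liver CON 3 alone. Over all genes, 12315 of 15038 passed without the libraries numbered 3, and 13219 of 15555 without liver CON 3 alone. After quantile normalization IRF7 (adjusted p = 0.000102 in limma) and MX2 (0.00606) both passed, as did 14074 of 15929 genes. After removal of mitochondrially encoded genes and ribosomal RNA, IRF7 passed (0.0162) and MX2 did not (0.145), where 15627 of 17046 genes passed. Without a filter on low values neither MX2 (0.0834) nor IRF7 (0.0914) passed.

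Among the antiviral effectors, MX1 averaged 3.56 ± 1.37 TPM in hypothalamus, 8.32 ± 0.474 in pituitary, 34.7 ± 37.3 in liver and 2.89 ± 2.17 in tail fat of CON sheep (SD, n = 4 each). Its liver level exceeded that of pituitary (adjusted p = 0.0283 in limma) with all libraries but not without liver CON 3 (adjusted p = 0.128), while pituitary and hypothalamus (adjusted p = 0.248) and hypothalamus and tail fat (0.568) did not differ beyond their spread. MX2 averaged 1.84 ± 0.674 TPM in hypothalamus, 0.975 ± 0.412 in pituitary, 5.7 ± 8.09 in liver and 0.585 ± 0.397 in tail fat (SD, n = 4 each). From highest to lowest mean log2 value the order for MX2 was liver, hypothalamus, pituitary and tail fat. No neighbouring pair in that order passed the limma test (adjusted p from 0.274 to 0.623). Liver stood above tail fat (adjusted p = 0.0218) and above pituitary (0.046), the latter not without liver CON 3 (0.171). Without CON 3 the liver mean of MX2 was 1.67 ± 0.846 TPM (SD, n = 3), below that of hypothalamus, and hypothalamus too then stood above tail fat (adjusted p = 0.00603).

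RSAD2 averaged 0.40 ± 0.293 TPM in hypothalamus, 0.42 ± 0.357 in pituitary, 4.19 ± 4.91 in liver and 2.15 ± 1.62 in tail fat (SD, n = 4 each). In hypothalamus and pituitary it was under 1 TPM in every CON library. It was higher in tail fat than in pituitary (adjusted p = 0.0359 in limma), and liver and tail fat did not differ beyond their spread (adjusted p = 0.409). Without CON 3 the liver mean of RSAD2 was 1.73 ± 0.19 TPM (SD, n = 3), below that of tail fat.

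The IFIT pair had another order. IFIT2 averaged 6.81 ± 2.85 TPM in hypothalamus, 9.86 ± 0.457 in pituitary, 9.23 ± 5.46 in liver and 0.453 ± 0.185 in tail fat, and IFIT3 averaged 4.38 ± 0.922 TPM in hypothalamus, 8.07 ± 0.71 in pituitary, 6.28 ± 5.99 in liver and 1.26 ± 0.862 in tail fat (SD, n = 4 each). Pituitary, liver and hypothalamus did not differ beyond their spread for either gene, with adjusted p of 0.466 and 0.587 for the neighbouring pairs of IFIT2 and 0.149 and 0.753 for those of IFIT3 in limma. Tail fat was below hypothalamus for IFIT2 (adjusted p = 2.43e-05) and for IFIT3 (adjusted p = 0.0056).

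ISG15 reached the highest level of any member and averaged 1.54 ± 1.01 TPM in hypothalamus, 1.96 ± 1.83 in pituitary, 61.2 ± 82.7 in liver and 5.87 ± 3.93 in tail fat (SD, n = 4 each). Liver exceeded tail fat (adjusted p = 0.0148 in limma), and the other 3 tissues did not differ from their neighbours (adjusted p = 0.18 and 0.975). IFI44 averaged 0.703 ± 0.202 TPM in hypothalamus, 0.913 ± 0.399 in pituitary, 14.9 ± 13.2 in liver and 0.45 ± 0.277 in tail fat (SD, n = 4 each). For IFI44 liver stood far above pituitary (adjusted p = 1.03e-06), and the remaining tissues were all near or below 1 TPM.

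The sensor gene IFIH1 averaged 1.04 ± 0.309 TPM in hypothalamus, 1.27 ± 0.0776 in pituitary, 12.5 ± 5.82 in liver and 1.56 ± 0.499 in tail fat (SD, n = 4 each), with liver above tail fat (adjusted p = 2.32e-07 in limma) and no difference beyond the spread among the other 3 tissues (adjusted p = 0.577 and 0.759 for neighbours). IRF7 had the smallest F of the 9 in this test, at 0.89 ± 0.193 TPM in hypothalamus, 1.5 ± 0.495 in pituitary, 1.76 ± 1.73 in liver and 2.67 ± 0.712 in tail fat (SD, n = 4 each). Its tail fat level exceeded that of hypothalamus (adjusted p = 0.0125), and no neighbouring pair in its order differed (adjusted p from 0.117 to 0.931).

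By tissue pair, limma called 5 members lower in hypothalamus than in liver (68.2% of all genes were called in either direction), 6 lower in pituitary than in liver (73.1%) and 7 higher in liver than in tail fat (44.1%). Against tail fat, 2 members were higher and 2 lower in hypothalamus (67.4% of all genes called), and 3 were higher and 1 lower in pituitary (71.4%). Between hypothalamus and pituitary limma called 0 members, and 0 had an unadjusted p under 0.05, where 13.1% of all genes were called. Without liver CON 3 the counts against liver were 5 lower in hypothalamus, 4 lower and 1 (IFIT3) higher in pituitary, and 7 higher in liver and 1 (IRF7) lower in liver than in tail fat. Against tail fat they were then 3 higher and 3 lower in hypothalamus and 3 higher and 2 lower in pituitary. The share of all genes called per pair was not taken without liver CON 3, so these counts cannot be set against it.

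**Figure D1:**
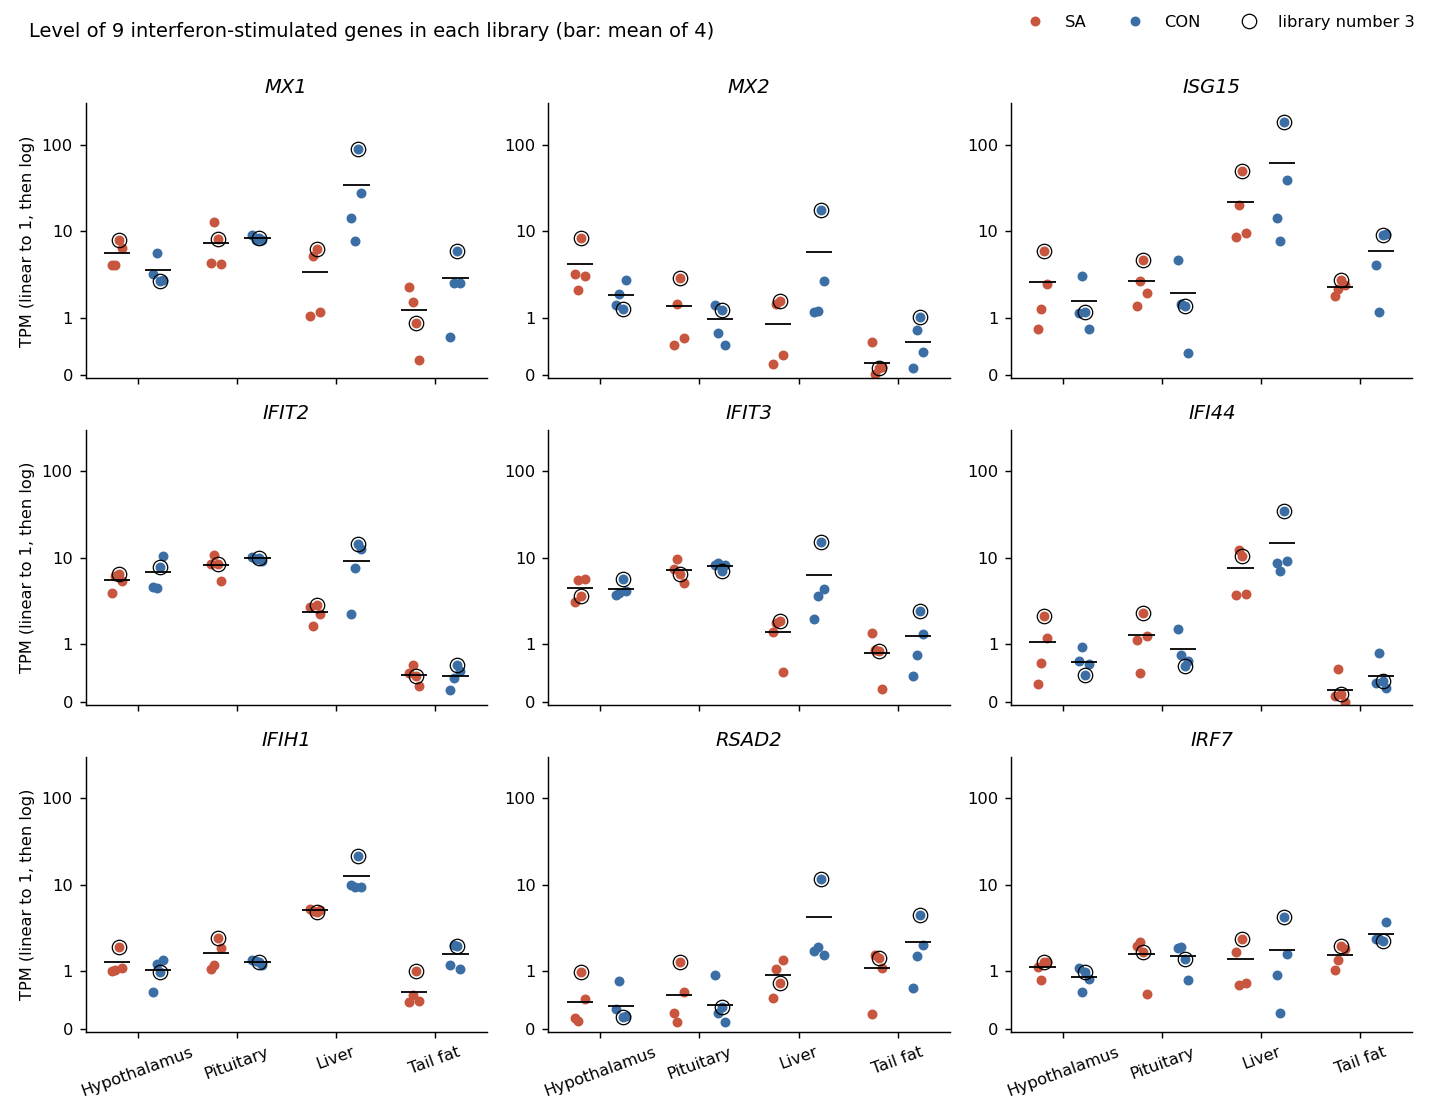
TPM of each gene in every library, with SA left of CON within each tissue, a black bar at the mean of 4 libraries, and a ring around the library numbered 3 of each group; the vertical axis is linear up to 1 TPM and logarithmic above. Liver CON libraries reach 184 TPM for ISG15 and 89.1 TPM for MX1, both in CON 3, while the other tissues reach at most 12.8 TPM, for MX1 in pituitary SA 2.

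The members varied together from library to library, and 1 liver library stood furthest apart. Liver CON 3 was the highest of the 4 liver CON libraries for all 9 members, where it was the highest for 21.5% of the genes tested in liver. It exceeded the next CON library by more than 2-fold for 8 of the 9, a margin that 0.967% of those genes reached. The 9 members summed to 391.6 TPM in that library, against 24.99 to 80.13 TPM in the liver SA libraries and 46.46 to 108.5 TPM in the other liver CON libraries.

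In single genes, MX2 had 1.17, 1.2, 17.8 and 2.65 TPM in liver CON libraries 1 to 4, so CON 3 was 6.71 times the next. RSAD2 had 1.73, 1.92, 11.6 and 1.54 TPM, a gap of 6.02-fold, and ISG15 had 14.4, 7.74, 184 and 39.2 TPM, a gap of 4.69-fold. For IFI44 the CON libraries held 8.65, 7.11, 34.6 and 9.13 TPM, a gap of 3.79-fold. The exception was IFIT2, at 2.26, 7.62, 14.4 and 12.7 TPM, where CON 4 was close behind CON 3 (1.14-fold).

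The summed level of 9 macrophage markers was also highest in liver CON 3 among all libraries. It was 178, 343, 407 and 259 TPM in liver SA libraries 1 to 4 and 520, 612, 1057 and 882 TPM in liver CON libraries 1 to 4, with 7 of the 9 markers at 1 TPM or more on average in each diet. MARCO, a receptor of liver macrophages, had 267 TPM in CON 3 and 44.2 to 172 TPM in the other CON libraries. CD163, a scavenger receptor of resident macrophages, was instead highest in CON 4 at 200.2 TPM, against 93.4 TPM in CON 3 and 52.5 and 57.4 TPM in CON 2 and CON 1. The share of these cells in the members' levels was not tested, and in bulk tissue more cells of a type and more RNA per cell cannot be told apart.

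Smaller shared excursions were seen in the other tissues. In hypothalamus, SA 3 was the highest SA library for 8 of the 9 members, with IFIT3 as the exception, and for 25.8% of all genes tested there. In pituitary, SA 3 was highest for 5 members, where it was highest for 10.8% of genes, and SA 2 was highest for the other 4, where it was highest for 56% of genes. Among pituitary CON libraries, CON 1 was highest for 7 of the 9 members, 2 of them by more than 2-fold over the next, and for 36.1% of genes. In tail fat, CON 3 was highest for 5 members, where it was highest for 2.5% of genes. The macrophage and microglia marker sum was highest in SA 3 among the hypothalamus libraries (245 TPM, against 147 to 195 TPM in other SA and 121 to 170 TPM in CON libraries) and among the pituitary libraries (210 TPM, against 138 to 176 TPM in other SA and 107 to 149 TPM in CON libraries). In pituitary CON 1 it was 142 TPM, below the 149 TPM of CON 2, and in tail fat CON 3 it was the lowest of the CON libraries, at 21.1 TPM against 40.6 to 52.5 TPM. The part of these cells in the excursions was not tested. Whether the numbers mark sheep is uncertain. Between hypothalamus and pituitary of SA, all 4 equal-numbered pairs of libraries had deviations correlated over genes at r from 0.13 to 0.37, each above its r with any other number, so SA 3 may be 1 sheep in both and its high values there may not be independent. In CON the r of the 4 such pairs lay between −0.32 and 0.059, and libraries of unequal number reached 0.48. An SA and a CON library of hypothalamus with 1 number, which come from different sheep, had an r of 0.29. Values of that size therefore do not by themselves mark 1 sheep.

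Across all 32 libraries, with each value taken as its deviation from the mean of its tissue and diet, 25 of the 36 pairs of members had a Pearson r over 0.5 and none was below 0 (median r = 0.58). The members share libraries and scaling, so these are descriptions without a test, and how reads shared by similar genes such as MX1 and MX2 or the IFIT genes were divided is uncertain. MX1 and MX2, which neighbour each other in the RefSeq gene table, had the highest (r = 0.82, n = 32). MX2 followed IFI44 at r = 0.79, and IFIH1 followed RSAD2 at r = 0.78. IFIT2 was least like the rest, with r from 0.25 with IFI44 to 0.66 with its neighbour IFIT3. Without the 4 liver CON libraries, 10 of the 36 pairs remained over 0.5, 6 were below 0, and the median r was 0.29 (n = 28).

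**Figure D2:**
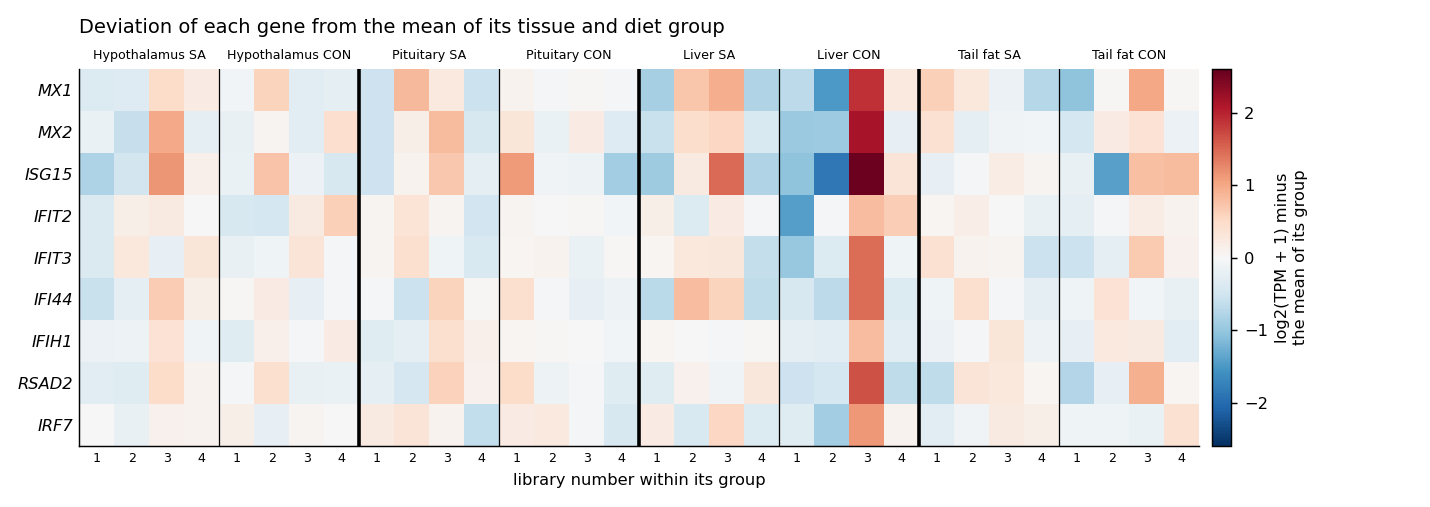
Each cell is log2(TPM + 1) of a gene in a library minus the mean of its tissue and diet group of 4; red is above and blue below the mean, and SA stands left of CON in each tissue. The column of liver CON 3 is red for all 9 genes, and hypothalamus SA 3 is red for all but IFIT3.

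Outside the 9, the 10 named genes whose deviations most resembled the mean deviation of the members, among 11202 candidates at 1 TPM or more in at least 16 libraries, all belonged to the lists of interferon pathway genes. IFIT1, the next gene to IFIT3, came first (r = 0.89, n = 32), with 59.4 TPM in liver CON 3 and 2.24 to 7.21 TPM in the other CON livers. IFI44L, the neighbour of IFI44, followed at r = 0.85, and USP18, which removes ISG15 from proteins, at r = 0.85. IFI6 (r = 0.78), PARP14 (0.78), DHX58 (0.75), RTP4 (0.74), XAF1 (0.73), EPSTI1 (0.73) and IFIT5 (0.72) completed the set. Without the liver CON libraries their r lay between 0.44 for EPSTI1 and 0.77 for IFI6 (n = 28). Those lists held 72 of the candidates.

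**Figure D3:**
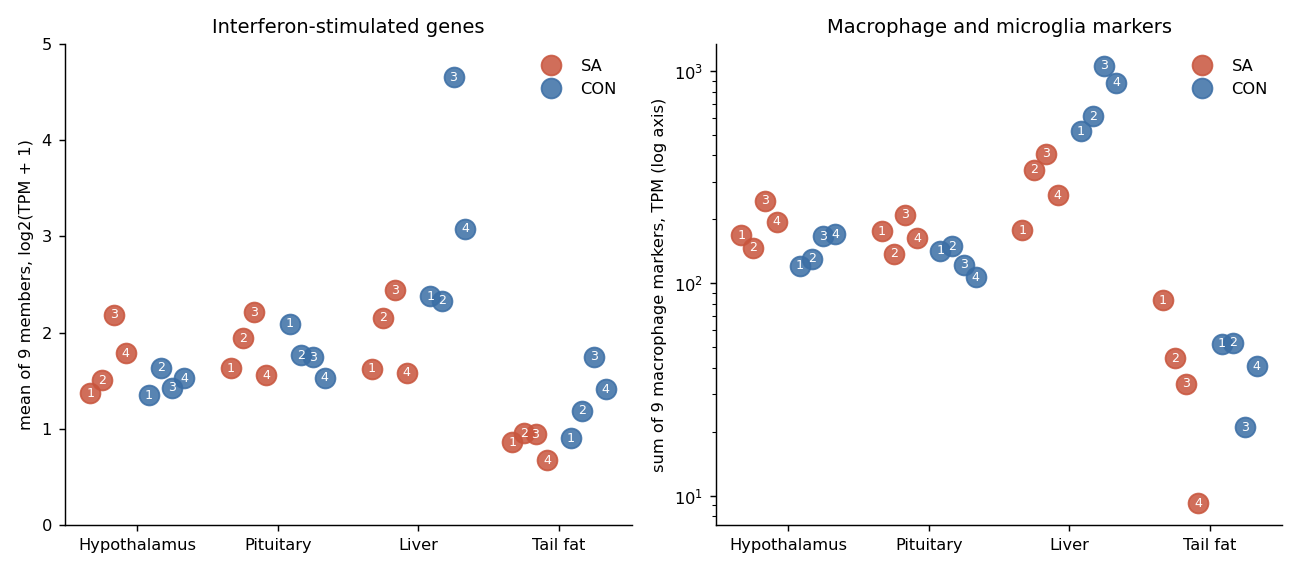
Mean log2(TPM + 1) of the 9 members (left) and summed TPM of 9 macrophage and microglia markers on a log axis (right) in every library, which carries its number; SA stands left of CON. Liver CON 3 is the highest point in both panels, and hypothalamus SA 3 and pituitary SA 3 are the highest of their tissues in both.

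The first diet comparison asks whether the hypothalamus and pituitary libraries of SA sheep differed in these genes. In hypothalamus, limma on log2(TPM + 1) tested 7 of the 9 members and called 0 of them, with 1 at an unadjusted p under 0.05. IFI44 and RSAD2 lay below the filter of 1 TPM in at least 4 of the 8 libraries. Among 14126 genes, 0% were called higher and 0% lower, and 493 had an unadjusted p under 0.05. The direction was higher in SA for 6 of the 7 members, where 55.2% of all genes leaned that way, with a median change of 0.17 for the members and 0.019 for all genes. Without SA 3 it was higher for 4 of 6 tested members, with a median change of 0.047 against 0.022 for all genes. After quantile normalization it was higher for 5 of 7.

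MX2 had the lowest p. It had 3.2, 2.11, 8.35 and 3.03 TPM in SA libraries 1 to 4 and 1.42, 1.9, 1.26 and 2.76 TPM in CON libraries 1 to 4, so the groups overlapped and SA 3 alone exceeded 4 TPM. Its change was 0.76 (SE 0.33, adjusted p = 0.947) in limma, and 0.43 without SA 3. MX1 had 4.02, 4.09, 8.0 and 6.47 TPM in SA and 3.23, 5.58, 2.66 and 2.75 TPM in CON, again with overlap, because CON 2 lay above SA 1 and SA 2. Its change was 0.54 (SE 0.25, adjusted p = 0.947), and 0.38 without SA 3.

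ISG15 in hypothalamus had 0.80, 1.25, 5.94 and 2.45 TPM in SA and 1.14, 3.04, 1.18 and 0.81 TPM in CON. The high values were those of SA 3 and CON 2, and the change of 0.38 (SE 0.42, adjusted p = 0.947) became −0.0049 without SA 3. IFIT2 had 3.98 to 6.59 TPM in SA and 4.45 to 10.4 TPM in CON, and was the only tested member with a lower mean log2 value in SA, a change of −0.20. IFIT3 overlapped throughout, at 3.09 to 5.64 TPM in SA and 3.68 to 5.72 TPM in CON.

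IFIH1 had 1.01, 1.03, 1.91 and 1.09 TPM in SA and 0.63, 1.2, 0.98 and 1.34 TPM in CON, where SA 3 stood apart from 3 nearly equal SA libraries. IRF7 stayed near 1 TPM in both diets, at 0.84 to 1.29 TPM in SA and 0.63 to 1.08 TPM in CON. The untested IFI44 had 0.31 to 2.12 TPM in SA and 0.47 to 0.96 TPM in CON, and RSAD2 had 0.14 to 0.99 TPM in SA and 0.20 to 0.83 TPM in CON, both with SA 3 as the highest SA library.

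In pituitary, limma tested 8 members, all but RSAD2, and called 0, with none at an unadjusted p under 0.05. Among 14472 genes, 0% were called higher and 0% lower, and 218 had an unadjusted p under 0.05. The tested members were higher in SA in 5 cases and lower in 3, with a median change of 0.10, while the median change of all genes was −0.27, so that 7 of the 8 lay above the median gene. Without SA 3, 6 members passed the filter and 4 of them were lower. MX2 and IFI44, both higher in SA with all libraries, then fell below the filter. Without SA 1 or without SA 2, 7 members passed the filter and 4 of them were lower. Without SA 4, the library of high mitochondrial share, 7 passed and 4 of them were higher. The median change of all genes was then −0.022, and MX1 (−0.091), IFIT2 (−0.084) and IFIT3 (−0.044) lay below it. After quantile normalization 7 of 8 members were higher, with a median change of 0.23 against −0.023 for all genes.

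MX1 had 4.32, 12.8, 8.15 and 4.22 TPM in pituitary SA and 8.94, 7.95, 8.45 and 7.95 TPM in CON, so the SA libraries spread over a 3-fold range around 4 nearly equal CON libraries. IFIT2 had 8.61, 10.7, 8.52 and 5.43 TPM in SA and 10.4, 9.73, 10.1 and 9.29 TPM in CON, with SA 4, the library of high mitochondrial share, the lowest. IFIT3 had 5.07 to 9.73 TPM in SA, lowest in SA 4 too, and 7.03 to 8.63 TPM in CON. The 3 changes were −0.28, −0.25 and −0.18, with adjusted p from 0.747 to 0.765 in limma.

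MX2 had 0.52, 1.46, 2.9 and 0.65 TPM in pituitary SA and 1.4, 0.73, 1.24 and 0.53 TPM in CON, and ISG15 had 1.37, 2.66, 4.62 and 1.93 TPM in SA and 4.61, 1.44, 1.38 and 0.39 TPM in CON. SA 3 was the highest library for MX2, and for ISG15 it was level with CON 1. IFI44 ranged over 0.50 to 2.28 TPM in SA and 0.62 to 1.5 TPM in CON, and IFIH1 over 1.07 to 2.43 TPM in SA and 1.17 to 1.35 TPM in CON, both highest in SA 3. IRF7 ranged over 0.60 to 2.15 TPM in SA, lowest in SA 4, and 0.85 to 1.92 TPM in CON, and RSAD2 over 0.12 to 1.29 TPM in SA and 0.11 to 0.93 TPM in CON. The groups overlapped for all 5 of these genes and for MX2.

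In liver all 9 members had lower mean log2 values in SA than in CON, and limma called 4 of them lower, MX1, IFIT2, IFIT3 and IFIH1. The share is 4 of 9 where 59.1% of the 11582 genes tested were called lower and 5.21% higher. Most genes were lower in liver SA, with a median change of −0.83 over all genes and −1.08 over the members. Relative to that median, 6 members lay lower and 3, ISG15, IFI44 and IRF7, lay higher.

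MX1 moved most. It had 1.06, 5.14, 6.17 and 1.17 TPM in liver SA libraries 1 to 4 and 14.03, 7.61, 89.1 and 27.9 TPM in CON libraries 1 to 4, without overlap. Mean levels were 3.39 ± 2.66 TPM in SA and 34.7 ± 37.3 TPM in CON (SD, n = 4 each), and the change was −2.69 (SE 0.72, adjusted p = 0.00963) in limma, −1.85 relative to the median gene. Without CON 3 it was −2.05 (adjusted p = 0.0149).

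IFIH1 was the most even of the 4. It had 5.23, 5.0, 4.83 and 5.15 TPM in SA and 9.91, 9.39, 21.2 and 9.49 TPM in CON, so that apart from CON 3 each group spanned less than 1 TPM. Its change was −1.08 (SE 0.26, adjusted p = 0.00499) in limma, −0.24 relative to the median gene, and −0.81 without CON 3 (adjusted p = 0.00577).

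IFIT2 had 2.72, 1.62, 2.86 and 2.27 TPM in SA and 2.26, 7.62, 14.4 and 12.7 TPM in CON, and overlapped only because CON 1 was as low as the SA libraries. Its change was −1.40 (SE 0.44, adjusted p = 0.019) in limma, and it no longer passed without CON 3 (−1.13, adjusted p = 0.052) or without CON 4 (−1.18, adjusted p = 0.0526). IFIT3 had 1.4, 1.79, 1.86 and 0.52 TPM in SA and 1.98, 3.59, 15.1 and 4.41 TPM in CON, where the highest SA library and CON 1 nearly touched. Its change was −1.34 (SE 0.47, adjusted p = 0.0302), became −0.85 without CON 3 (adjusted p = 0.0343), and did not pass without SA 1 (adjusted p = 0.0526), SA 4 (0.0745) or CON 4 (0.0509).

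The other 5 members did not pass in liver. RSAD2 had 0.54, 1.06, 0.80 and 1.34 TPM in SA and 1.73, 1.92, 11.6 and 1.54 TPM in CON, without overlap, and a change of −1.06 (SE 0.47, adjusted p = 0.0737) in limma. MX2 had 0.19, 1.44, 1.57 and 0.35 TPM in SA and 1.17, 1.2, 17.8 and 2.65 TPM in CON, overlapping at CON 1 and CON 2, and a change of −1.26 (SE 0.65, adjusted p = 0.119). Over all 9 members, 4 (MX1, IFIT3, IFIH1 and RSAD2) had every SA library below every CON library, as did 54.2% of the genes tested.

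ISG15 had 8.58, 20.3, 49.2 and 9.52 TPM in liver SA and 14.4, 7.74, 184 and 39.2 TPM in CON. Here SA 3, at 49.2 TPM, exceeded 3 of the CON libraries, and the change of −0.80 (SE 0.92, adjusted p = 0.462) was 0.05 without CON 3. IFI44 had 3.72, 12.4, 10.5 and 3.87 TPM in SA and 8.65, 7.11, 34.6 and 9.13 TPM in CON, where SA 2 and SA 3 lay above CON 1, 2 and 4 and the other SA libraries below every CON library, and a change of −0.75 (SE 0.53, adjusted p = 0.238). IRF7 had 1.66, 0.76, 2.33 and 0.80 TPM in SA and 0.94, 0.28, 4.22 and 1.58 TPM in CON, and its change of −0.06 (SE 0.40) was far above the median gene.

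These liver calls were lost under both other scalings tried. After quantile normalization between the 8 libraries limma called 0 members, with 1 at an unadjusted p under 0.05 and changes of −1.81 for MX1 (adjusted p = 0.0876) and −0.24 for IFIH1 (adjusted p = 0.491), and all genes split into 1886 higher and 2440 lower in place of 603 higher and 6842 lower. After mitochondrially encoded genes and ribosomal RNA were removed and TPM rescaled, it again called 0, with none at an unadjusted p under 0.05, and gave −1.87 for MX1 and −0.10 for IFIH1, against 2025 genes higher and 1627 lower. ISG15, IFI44 and IRF7 had a higher mean in SA under both. The mitochondrial share separated liver SA from liver CON without overlap, as did the marker sums of several cell types, all lower in SA. Macrophage markers summed to 178 to 407 TPM in SA and 520 to 1057 TPM in CON. Among them only AIF1 had a higher mean in SA, with overlap, at 32.9 to 72.4 TPM in SA and 33.8 to 70.0 TPM in CON. Endothelial markers summed to 10.2 to 19.4 TPM in SA and 77.7 to 106 TPM in CON, and T and NK cell markers to 4.46 to 12.6 TPM in SA and 16.3 to 47.0 TPM in CON. Of 5 plasmacytoid dendritic cell markers 3 were in the table, TCF4, IRF8 and SPIB. They summed to 3.07 to 5.76 TPM in SA and 10.5 to 24.8 TPM in CON. Most of that sum was IRF8, at means of 3.755 TPM in SA and 14.83 TPM in CON. IRF8 is also on the list of transducers, so the sum may not stand for that cell type. Hepatocyte markers summed to 4919 to 19580 TPM in SA and 61300 to 81270 TPM in CON. The part of these cell types in the members' changes was not tested.

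**Figure D4:**
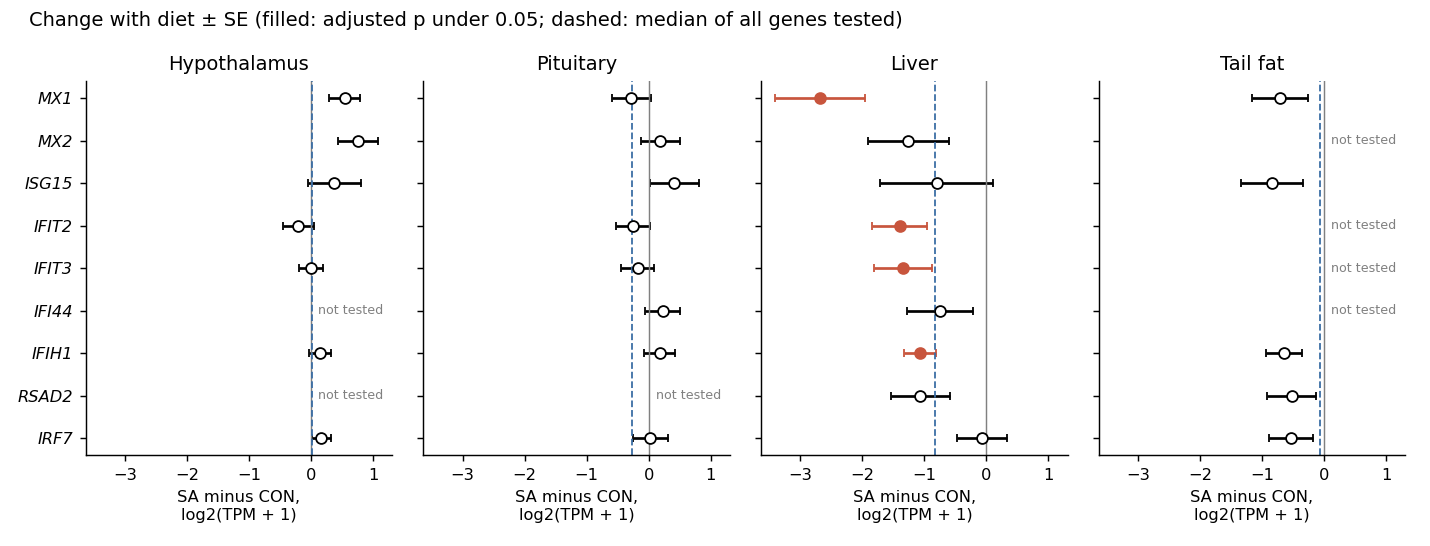
Difference of SA minus CON ± SE for each gene in each tissue, on the log2(TPM + 1) scale; filled points passed an adjusted p under 0.05, and the dashed line is the median change of all genes tested. Only MX1, IFIT2, IFIT3 and IFIH1 in liver are filled, in a tissue whose median line stands at −0.83.

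**Figure D5:**
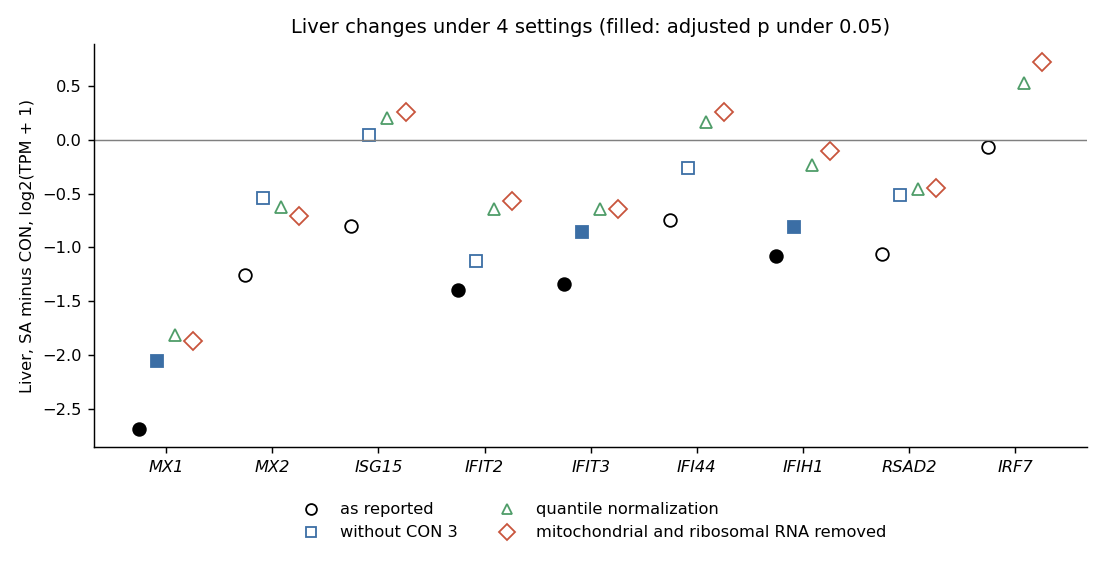
Liver SA minus CON difference in log2(TPM + 1) for each gene as reported and under 3 other settings; filled symbols passed an adjusted p under 0.05. MX1, IFIT3 and IFIH1 stay filled without CON 3, no symbol is filled after either rescaling, and IRF7 fell below the expression filter without CON 3 and has no symbol there.

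In tail fat limma tested 5 members and called 0, with 1 (IFIH1) at an unadjusted p under 0.05. Among 11185 genes, 0.277% were called higher and 0.42% lower, and 1596 had an unadjusted p under 0.05. MX2, IFIT2, IFIT3 and IFI44 were below the filter. All 5 tested members had lower means in SA, with a median change of −0.64 against −0.064 for all genes. Every SA library lay below every CON library for IFIH1 and IRF7, an arrangement found in 5.05% of the genes tested.

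IFIH1 had 0.46, 0.58, 1.0 and 0.48 TPM in tail fat SA and 1.19, 2.01, 1.97 and 1.07 TPM in CON, a change of −0.64 (SE 0.30, adjusted p = 0.343) in limma. IRF7 had 1.04, 1.36, 1.94 and 1.78 TPM in SA and 2.37, 2.33, 2.23 and 3.73 TPM in CON, a change of −0.53 (SE 0.35, adjusted p = 0.511). Both gaps were narrow, between 1.0 TPM in SA 3 and 1.07 TPM in CON 4 for IFIH1, and between 1.94 TPM in SA 3 and 2.23 TPM in CON 3 for IRF7.

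ISG15 had 1.78, 2.14, 2.7 and 2.41 TPM in tail fat SA and 4.07, 1.18, 8.94 and 9.28 TPM in CON. CON 3 and CON 4 were high, CON 2 was below all SA libraries, and the change was −0.84. MX1 had 2.26, 1.54, 0.91 and 0.26 TPM in SA and 0.66, 2.52, 5.87 and 2.51 TPM in CON, and RSAD2 had 0.26, 1.53, 1.42 and 1.08 TPM in SA and 0.70, 1.48, 4.44 and 1.98 TPM in CON, both highest in CON 3 and overlapping between diets. Their changes were −0.71 and −0.52, with adjusted p of 0.496 and 0.575 in limma. The untested members were low, at 0.020 to 0.58 TPM in SA and 0.13 to 1.02 TPM in CON for MX2, and 0.28 to 0.65 TPM in SA and 0.21 to 0.64 TPM in CON for IFIT2. IFIT3 had 0.22 to 1.36 TPM in SA and 0.46 to 2.44 TPM in CON, and IFI44 0 to 0.58 TPM in SA and 0.25 to 0.86 TPM in CON, so the diets overlapped for all 4.

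Beside these values, tail fat CON 4, the highest library for ISG15 and IRF7, held 473 TPM of albumin, a liver gene, against 0.68 to 1.34 TPM in the SA libraries and 1.54 to 11.3 TPM in the other CON libraries. Mitochondrially encoded genes held 25.6% to 50.2% of TPM in tail fat SA and 22.5% to 70.6% in tail fat CON, highest in CON 3. The part of either in the members' levels was not tested.

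A limma F-test of the diet by tissue interaction over all 32 libraries asked whether the diet effect was unequal among tissues. It called MX1 (adjusted p = 0.00801) and IFIH1 (adjusted p = 0.00560), 2 of 9 members, where 27% of 16360 genes were called. In both, the liver change was the largest in size of the 4 tissues. For MX1 the changes were 0.54, −0.28, −2.69 and −0.71 in hypothalamus, pituitary, liver and tail fat, and for IFIH1 they were 0.14, 0.18, −1.08 and −0.64. IFIT2 fell just short (adjusted p = 0.0513), followed by MX2 (0.0773), IFIT3 (0.101), RSAD2 (0.212), IFI44 (0.329), IRF7 (0.498) and ISG15 (0.513). MX1 did not pass without the libraries numbered 1 (adjusted p = 0.0535) or 4 (0.110), and IFIH1 not without those numbered 1 (0.0540) or 3 (0.147). Quantile normalization ended both calls (adjusted p = 0.0980 for MX1 and 0.308 for IFIH1 in limma), and removal of mitochondrial and ribosomal RNA ended that of MX1 (0.116) and left IFIH1 at 0.0382. With libraries of the same diet and number as a replicate block, MX1 (0.00765) and IFIH1 (0.00533) passed and IFIT2 passed too (0.0497).

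The rest of the pathway was read from lists of genes by role. Of 69 other interferon effectors 43 were in the table by name, and of 41 tested in liver 23 were called lower and 1 higher in limma, where 59.1% of all genes were called lower and 5.21% higher. The peptide transporter TAP2, part of antigen presentation, averaged 1.39 ± 0.302 TPM in SA and 8.67 ± 0.539 TPM in CON (SD, n = 4 each; change −2.03). N4BP1, a nuclease that acts on viral RNA in human cells, changed by −1.50 and TDRD7 by −1.58. The effector called higher was PARP10, at 5.64 ± 1.95 TPM in SA and 2.77 ± 0.866 TPM in CON (SD, n = 4 each; change 0.80, adjusted p = 0.0191).

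Upstream of the members, 12 of 13 tested receptors and signal transducers were called lower in liver, among them JAK1 (−2.23) and IFNGR1 (−1.71), which is part of the receptor of interferon gamma. Over all genes tested in liver 59.1% were called lower. Of 12 sensors and adaptors 6 were called lower, led by the RNA sensor TLR3 (−2.28), MAVS (−1.73), the adaptor through which IFIH1 signals, and MYD88 (−1.37). Of 9 negative regulators 6 were called lower, led by TRIM28 (−1.09), PTPN11 (−0.999) and PTPN6 (−0.98). The shares of sensors and adaptors and of negative regulators were near that of all genes.

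As with the members, these liver counts moved with the scaling. After quantile normalization limma called 5 of 41 effectors lower and 3 higher, and 2 of 13 receptors and transducers lower. Of 12 sensors and adaptors it called 3 lower and 3 higher. Of 9 negative regulators it called 0, with 0 of these at an unadjusted p under 0.05. Over all 11582 genes, 2440 were called lower and 1886 higher in that setting. After removal of mitochondrial and ribosomal RNA it called 4 of 42 effectors lower and 3 higher, and 2 of 14 receptors and transducers lower. Of 13 sensors and adaptors it called 2 lower and 3 higher. Of 9 negative regulators it called 0, with 1 of these at an unadjusted p under 0.05. Over all 12858 genes, 1627 were called lower and 2025 higher in that setting.

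As fitted on all libraries without rescaling, no gene of these lists was called by limma in the other 3 tissues, where 4 in hypothalamus, 0 in pituitary and 3 in tail fat had an unadjusted p under 0.05. In hypothalamus 28 of 35 effectors had higher means in SA, where 55.2% of all genes had, and 18 of 33 without SA 3, with a median change over the list of 0.18 with SA 3 and 0.0097 without it. Those of lowest p were GBP2 (0.65), PLSCR1 (0.46) and MOV10 (0.41), and IRF8 (0.45) and IRF1 (0.51) were among the transducers of lowest p, all at an adjusted p = 0.947 in limma. The sensors of lowest p there were TICAM1 (−0.37), UNC93B1 (0.29) and DDX58 (0.36), and the negative regulators PIAS1 (0.18), PTPN6 (0.24) and USP18 (0.40). GBP2 was also among the lowest in pituitary (0.66) and tail fat (0.69). It averaged 3.09 ± 0.697 TPM in SA and 1.62 ± 0.637 TPM in CON in hypothalamus, 3.63 ± 2.04 TPM in SA and 1.69 ± 0.342 TPM in CON in pituitary and 3.15 ± 0.482 TPM in SA and 1.65 ± 0.809 TPM in CON in tail fat (SD, n = 4 each).

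In pituitary the other genes of lowest p per list were SAMD9 (0.56) and RTP4 (0.52), TRAF3 (−0.38), TRAF6 (−0.25) and MAVS (−0.23), IRF1 (0.47), JAK1 (−0.41) and TYK2 (−0.29), and NLRX1 (−0.33), PTPN6 (0.33) and TRIM28 (−0.32), all at an adjusted p = 0.747 in limma. In tail fat LGALS3BP, a secreted glycoprotein, came closest to a call, at 232 ± 116 TPM in SA and 58.6 ± 21.3 TPM in CON (SD, n = 4 each; change 1.90, adjusted p = 0.0723). It was called higher by limma after quantile normalization (adjusted p = 0.0418), once mitochondrial and ribosomal RNA were taken out (0.0206), with the replicate block (0.00965) and without CON 2 (0.0171). The block there joined SA and CON libraries of different sheep, so it rests on no known pairing. UNC93B1 was called higher after quantile normalization (adjusted p = 0.0259 in limma) and after that removal (0.0425), and NMI was called lower after the removal (0.0294). Without rescaling, UNC93B1 (1.20), which carries nucleic acid sensors to endosomes, and SOCS3 (1.13) leaned higher in SA, and NMI (−0.94), USP18 (−0.74) and PIAS1 (−1.05) leaned lower, with adjusted p from 0.258 to 0.405. The remaining genes of lowest p there were IRF3 (−0.76), TLR7 (0.81), IFNGR2 (−0.73), TYK2 (0.41) and IRF1 (0.40).

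The few interferon genes found by name were near 0. Of 10 ligand symbols 3 were in the table by name, IFNG, IFNK and IFNE. None of these passed the filter in any tissue, and the highest value was 0.62 TPM of IFNG in liver CON 2. In liver CON 3, the library with the highest members, IFNG, IFNK and IFNE were all listed at 0. The symbols IFNB1, IFNA1, IFNW1, IFNT, IFN-TAU, IFNAC and IFNL3 were not found. As 13350 rows carry no name, the levels of those interferons are unknown.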

How the data were processed

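Libraries of messenger RNA captured on oligo(dT) beads were made with a stranded kit, per the labels' protocols. Reads were processed with fastp, HISAT2 and RSEM, per the submitters' processing notes. Tool versions and the genome build: not given in the sources used here. TPM per gene were deposited by the authors without scaling between libraries. Column sums ran from 936939 to 987320, and TPM keeps no depth, so depth is unknown and no counting interval is given. Because TPM is relative, a transcript class that takes more of a library lowers every other value.

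A gene entered the test of a tissue when 4 or more of its 8 libraries reached 1 TPM. Each tissue was fitted by itself in limma 3.58.1 (R 4.3.3; mean trend, robust moderation) on log2(TPM + 1), two-sided, with Benjamini-Hochberg adjustment over all genes tested and a threshold of 0.05. This scale understates changes of low genes. The interaction used all 32 libraries and the tissue test the 16 CON libraries. The scripts were tested on simulated data. The members and the gene lists were chosen with earlier results of these data known. All 9 members are named in every tissue, and of each other list the 3 tested genes of smallest p in each tissue, save for 1 gene that is not reported here. Alternatives were a pseudocount of 0.1, no filter on low values, quantile normalization, removal of mitochondrially encoded genes and ribosomal RNA (64 rows) with rescaling, the replicate number as a block, and each library left out, with the tissue test also run without liver CON 3 alone, which was added after the data were seen. Whether equal numbers pair libraries was checked. Of 16 pairs of SA and CON libraries with 1 number in 1 tissue, 4 had correlated deviations over 0.1, and of 48 pairs of 1 diet and number across tissues, 14 had and 18 correlated best with their own number. In SA all 4 pairs of hypothalamus with pituitary did both. In CON none of the 4 exceeded 0.1, while libraries of unequal number reached an r of 0.48. The numbers are thus at most a weak hint of shared sheep. They were not used as pairs in the main fits, and are given as a block only as an alternative. In the interaction and tissue tests the block joined libraries of 1 diet and number. In the fits of single tissues it joined SA and CON libraries of 1 number, which come from different sheep. Neighbouring genes were read from a RefSeq table (ARS-UI_Ramb_v3.0), in which all 9 members matched by symbol.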

Additional observations from a re-analysis of the deposited data

Results flagged for a closer look

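Of 72 sets of 4 libraries (9 genes in 8 groups), 7 held a library whose gap in TPM to the nearest other exceeded the Dixon limit. Chance passes that limit in about 1 of 20 independent sets of normally distributed values. The limit was applied to TPM, not to log2 values, and the members varied together. The 7 sets therefore cannot be compared with that rate. Of the 7, 4 fell on the same library, liver CON 3, for MX2 (17.79 TPM), IFI44 (34.58 TPM), IFIH1 (21.22 TPM) and RSAD2 (11.55 TPM). IFIH1 was also apart in hypothalamus SA 3 (1.91 TPM), ISG15 in hypothalamus CON 2 (3.04 TPM), and IRF7 in tail fat CON 4 (3.73 TPM). All 7 were high values.

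The effect of diet differed between tissues in the limma F-test of the interaction for MX1 (adjusted p = 0.008005) and IFIH1 (adjusted p = 0.005597), among 9 members tested. Quantile normalization ended both calls (adjusted p = 0.09797 for MX1 and 0.3083 for IFIH1 in limma), and removal of mitochondrial and ribosomal RNA ended that of MX1 (0.1158).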

How the results depend on the processing

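Of 361 values of single members recomputed under the alternatives, 321 kept their direction and side of the threshold, 14 lost a call, 1 gained it and 25 changed sign. In liver the count of 4 called members was 0 after quantile normalization, 0 after removal of mitochondrial and ribosomal RNA, and 2 to 4 with a library left out (2 without CON 4). The count of 2 in the interaction was 0 after quantile normalization, 1 after removal of mitochondrial and ribosomal RNA, and 1 to 2 with a replicate number left out. Without the libraries numbered 1 the member called was IFIT2 (adjusted p = 0.0166 in limma), and neither MX1 nor IFIH1 passed. The counts of 0 in hypothalamus, pituitary and tail fat stayed 0 under every alternative run, and the tissue test under CON called 6 to 9 members. With the replicate block the counts were 0 in hypothalamus, 0 in pituitary, 4 in liver, 0 in tail fat, 3 for the interaction and 7 for the tissue test, where IFIT2 gained and MX2 lost its call. The numbers are not known to mark the same sheep. In the fits of single tissues the block joined SA and CON libraries of 1 number. Those come from different sheep, so the diet counts with the block rest on no known pairing.

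Changes of sign were as follows. In hypothalamus IFIT3 was −0.031 after quantile normalization, and with a library left out it ranged from −0.10 to 0.13, ISG15 from −0.0049 to 0.64 and IFIT2 from −0.35 to 0.0038. In pituitary IFIT2 was 0.016 and IFIT3 0.080 after quantile normalization, IFIT3 was 0.025 after removal of mitochondrial and ribosomal RNA, and IRF7 ranged from −0.11 to 0.24 with a library left out. In liver, after quantile normalization and after that removal, ISG15 was 0.20 and 0.26, IFI44 0.17 and 0.25, and IRF7 0.52 and 0.72. IRF7 was 0.052 with a pseudocount of 0.1 and ranged from −0.37 to 0.066 with a library left out, and ISG15 from −1.42 to 0.047 (without CON 3). The cause was not tested, and with unknown depth nothing firm can be said of members near 1 TPM.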

Other observations

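RSAD2 and CMPK2, which neighbour each other in the RefSeq table and are both induced by interferon, had unlike levels in the brain libraries (CMPK2 was chosen after its values were seen). In hypothalamus CMPK2 had 25.3 to 27.9 TPM in SA and 21.2 to 30.9 TPM in CON, while RSAD2 had 0.14 to 0.99 TPM in SA and 0.20 to 0.83 TPM in CON. In liver CMPK2 had 3.22 to 6.92 TPM in SA and 10.2 to 64.9 TPM in CON, and RSAD2 had 0.54 to 1.34 TPM in SA and 1.54 to 11.6 TPM in CON, both highest in CON 3.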
